A study of Homo sapiens with 15 samples.

Results

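A set of 10 genes of JAK-STAT signalling and its feedback was followed through a time course of p300 inhibition in a myeloma line, chosen by name: the receptor-associated kinases JAK1 and JAK2, the transcription factors STAT3, STAT5A and STAT5B, the feedback inhibitors CISH, SOCS1 and SOCS3, and the kinases PIM1 and PIM2. All 10 were found among the 26364 gene rows of the deposited table, and all 10 were among the 12002 genes that passed the filter of a mean of 1 TPM (transcript abundance scaled for length and library size) over the 15 libraries. The cells were RPMI-8226, a human cell line established from multiple myeloma, kept in RPMI 1640 with fetal bovine serum. They received 100 nM KB528, which the series describes as an inhibitor of the lysine acetyltransferase (KAT) activity of p300, for 1, 3, 6 or 24 h, or DMSO, listed as 0 h and as wild type; no genetic change is named for any group. Each of the 5 groups held 3 libraries, prepared from poly(A) RNA with a strand-specific kit. Whether the 3 libraries were separate cultures is not stated, and the p-values reflect only how far these libraries scatter, which can be technical. DMSO was sampled at a single time, so the effect of KB528 and that of time in culture cannot be told apart.

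In the canonical pathway, a cytokine bound to its receptor brings together receptor-associated Janus kinases, which phosphorylate each other, the receptor and STAT proteins, and the STAT dimers then move to the nucleus and activate transcription. Among the genes so activated are those for SOCS1, SOCS3 and CISH, which bind the kinases or the receptors and limit the signal, and those for PIM1 and PIM2, serine/threonine kinases that are active once translated. In myeloma, interleukin-6 (IL-6) acting through JAK1, JAK2 and STAT3 is a well-known growth and survival signal, and PIM2 is a kinase known to be abundant in plasma cell tumours.

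The libraries resembled each other within groups and carried the markers of a plasma cell line. Correlations of log2(TPM + 1) across genes ran from r = 0.995 to 0.998 within groups. Total depth is unknown, but steps in the lowest values put relative depth at 0.759 to 1.12 of that of DMSO replicate 1. The 9 plasma cell markers were detected in these libraries, and their summed level ran from 7595 to 8434 TPM in DMSO, 7383 to 7637 at 1 h, 6892 to 7541 at 3 h, 6117 to 6305 at 6 h and 5080 to 5252 at 24 h. The sums at 6 h lay below those in DMSO and at 1 h and 3 h, and the sums at 24 h lay below all others. At 3 h 6 of the 9 markers were called lower and 2 higher, beside 32.0% and 24.9% of all genes tested. At 6 h 7 of the 9 were lower and at 24 h 9 of 9, beside 24.5% and 15.2% of all genes tested. MZB1 averaged 1172 TPM at 24 h and 2618 TPM in DMSO. The part of this shift in the changes of the 10 genes was not tested. The sums of the 4-gene T cell, myeloid and fibroblast lists reached at most 3.80, 1.69 and 0.877 TPM, the T cell sum being 2.75 to 3.80 TPM at 24 h and 1.95 to 2.27 TPM in DMSO. The B cell list reached 6.02 TPM, nearly all MS4A1, with sums of 2.80 to 3.21 TPM at 24 h and 5.38 to 6.02 TPM in DMSO, while CD22 and PAX5 were close to 0. The epithelial list was 101 to 126 TPM, nearly all EPCAM (98.2 to 120 TPM). Spike-in RNAs took 9.35% to 16.6% of each library.

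The 10 genes did not move as a block. SOCS1 and CISH went opposite ways within 1 h, PIM2 fell between 1 h and 3 h, and JAK1, JAK2 and all 3 STAT genes were higher than in DMSO libraries by 24 h, when CISH, SOCS1, SOCS3, PIM1 and PIM2 were all lower. At 1 h 2 of the 10 were higher (STAT3 and SOCS1) and 2 were lower (CISH and SOCS3), beside 15% higher and 7.57% lower (22.6% in either direction) of all genes tested. At 3 h 2 were higher and 5 lower, against 24.9% and 32.0% of all genes. At 6 h 4 were higher and 5 lower, against 44.4% and 24.5%. At 24 h 5 were higher and 5 lower, against 56.1% and 15.2%. With 56.9%, 68.9% and 71.4% of all tested genes called at 3, 6 and 24 h, a single call says little about these genes and the size and time of each change follow. The median log2 change of the 10 was 0.033, -0.18, -0.21 and 0.18 at 1, 3, 6 and 24 h, beside 0.043, -0.042, 0.12 and 0.23 over all genes tested. Between consecutive times, 2 were higher and 4 lower from 1 h to 3 h (15.2% and 31.8% of all genes, 47.0% together), 5 and 2 from 3 h to 6 h (42.3% and 13.7%, 56.0% together) and 5 and 1 from 6 h to 24 h (41.0% and 26% of all genes, 67.0% together). All 10 passed the F test over the course, as did 93.6% of all genes tested.

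Calls are those of limma at a Benjamini-Hochberg adjusted p under 0.05, and every change below is on the log2(TPM + 1) scale, which understates the change of genes of a few TPM. When libraries were scaled by median ratios, the median of all genes moved by -0.14 at 6 h and -0.18 at 24 h, and 3922 genes were called higher and 4504 lower at 6 h, against 5327 and 2945 without it. At 24 h that scaling gave 4458 higher and 3594 lower, against 6738 and 1826, and at 1 h 1858 and 1791, against 1802 and 908. Scaling to the spike-ins moved the median by -0.20 at 3 h and 0.17 at 6 h and gave 411 higher and 2523 lower at 3 h, against 2991 and 3836, and 4118 and 995 at 6 h.

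**Figure D1:**
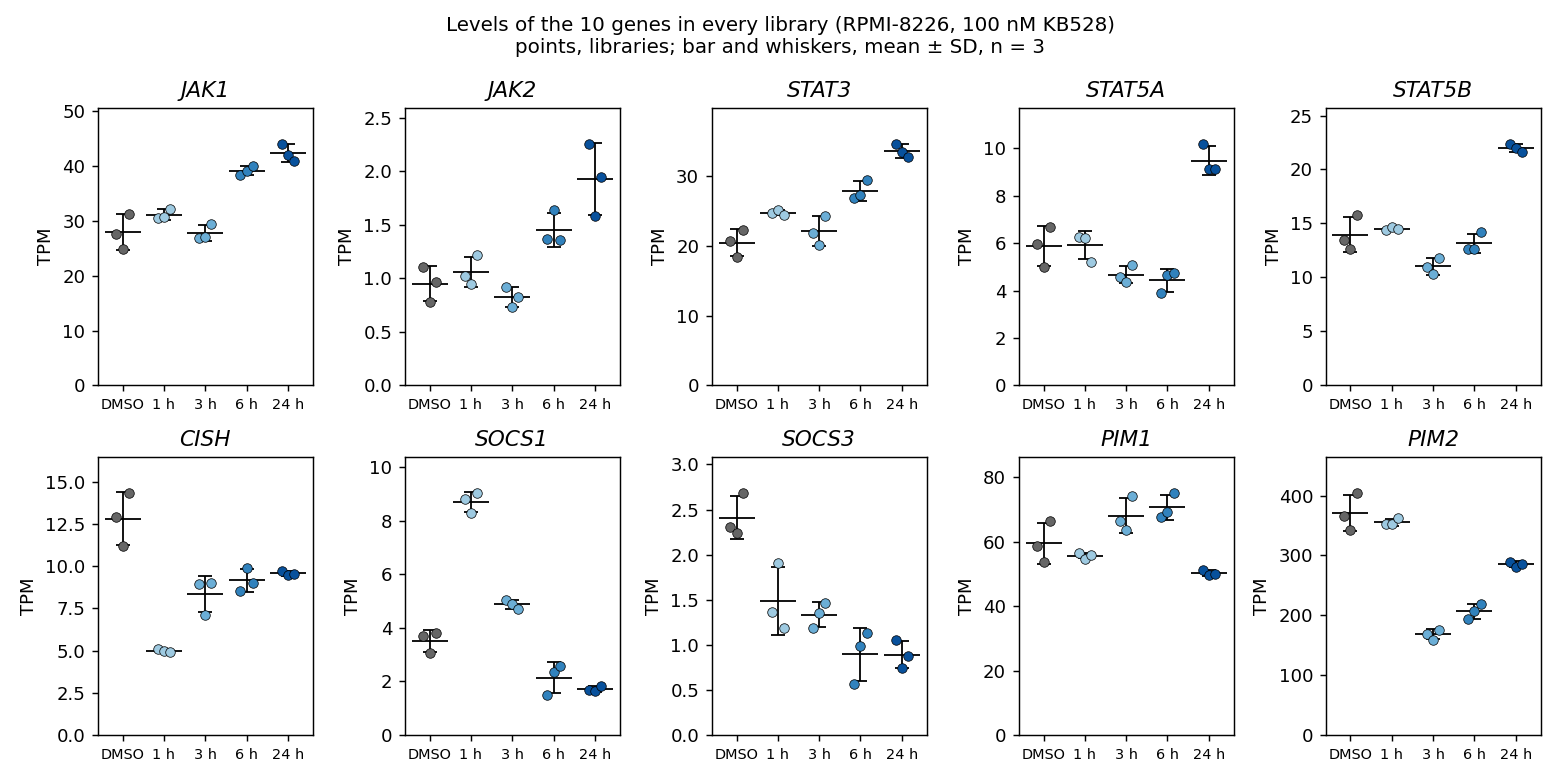
TPM of each of the 10 genes (y axis, linear, own scale per panel) at each time of KB528, with DMSO at the left (x axis). Points are single libraries, and bars with whiskers are the mean and SD of 3; SOCS1 peaks at 1 h where CISH is lowest, and PIM2 is lowest at 3 h.

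The feedback inhibitors made up 3 of the 4 genes called at 1 h, with STAT3 the other. CISH encodes an inhibitor of STAT5 signalling downstream of cytokine receptors and is a standard example of a gene that STAT5 switches on. It stood at 13.0, 11.2 and 14.3 TPM in the DMSO libraries, 5.09, 4.99 and 4.90 at 1 h, 8.96, 7.14 and 9.03 at 3 h, 8.56, 9.90 and 9.04 at 6 h and 9.73, 9.49 and 9.53 at 24 h. Every KB528 library lay below every DMSO library, and the 3 libraries at 1 h lay below all others. CISH fell by 1.20 ± 0.089 on the log2 scale at 1 h (SE; limma adjusted p = 1.45e-07), when its mean was 0.389 of that in DMSO, and it was still 0.56, 0.44 and 0.38 below DMSO at 3, 6 and 24 h (adjusted p = 7.30e-05, 0.000431 and 0.00139). From 1 h to 3 h it rose by 0.64 ± 0.089 (adjusted p = 3.29e-05), and the range at 6 h overlapped those at 3 h and 24 h. The calls at 6 h and 24 h were lost under spike-in scaling (-0.27 and -0.40, adjusted p = 0.261 and 0.116), as was the step from 1 h to 3 h (0.49, adjusted p = 0.0621). CISH shares 218 exon bases with MAPKAPK3 on the opposite strand, and the sources used here do not say whether reads were counted by strand.

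The promoter of CISH is shown because STAT dimers bind the palindrome TTCNNNGAA and because, within the windows searched, CISH differs in this from the other 9 genes. The 250 bases before the start of CISH (RefSeq, GRCh38.p14, chr3:50611775-50612024, minus strand) held 4 matches, in capitals, whose first bases lie 241, 230, 129 and 112 bases before the start. The corresponding 250 bases of SOCS1 (chr16:11256205-11256454, minus strand), which was higher at 1 h, held none. The windows of SOCS3, which was lower at 1 h as CISH was, also held none. Whether the matches bear on any of these changes was not tested.
CISH: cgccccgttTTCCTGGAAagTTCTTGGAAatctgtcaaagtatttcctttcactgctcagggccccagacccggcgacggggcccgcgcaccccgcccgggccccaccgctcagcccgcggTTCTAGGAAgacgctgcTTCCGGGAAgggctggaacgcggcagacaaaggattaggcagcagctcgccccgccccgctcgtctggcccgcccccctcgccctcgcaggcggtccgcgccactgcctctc
SOCS1: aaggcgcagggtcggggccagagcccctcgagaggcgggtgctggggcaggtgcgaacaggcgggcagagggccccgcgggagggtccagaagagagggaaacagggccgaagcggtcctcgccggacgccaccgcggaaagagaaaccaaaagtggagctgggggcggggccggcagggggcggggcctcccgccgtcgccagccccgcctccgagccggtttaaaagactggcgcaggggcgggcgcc
Over the 10 genes 18 such windows were searched, 1 for each annotated start, and CISH alone held a match. Bases outside these windows were not searched, so matches elsewhere near the other genes are not known here. Of all 35116 promoter windows of this length, 6.57% held at least 1 match, and 5 windows (0.0142%) held 4 or more. The motif is its own reverse complement, so both strands were covered. A match is a run of letters in this window and not a measured binding site.

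SOCS1 moved opposite to CISH at 1 h, and both genes were below their DMSO levels at 6 h and 24 h. SOCS1 encodes a direct inhibitor of JAK catalytic activity. Its libraries gave 3.69, 3.05 and 3.79 TPM in DMSO, 8.80, 8.29 and 9.03 at 1 h, 5.04, 4.87 and 4.71 at 3 h, 1.47, 2.36 and 2.58 at 6 h and 1.66, 1.65 and 1.83 at 24 h. All libraries at 1 h and 3 h lay above the DMSO range and all at 6 h and 24 h below it. SOCS1 rose by 1.11 ± 0.11 at 1 h (SE; adjusted p = 3.26e-06), a mean 2.48 times that in DMSO, was 0.39 higher at 3 h (adjusted p = 0.00745), and was lower by 0.54 at 6 h and 0.73 at 24 h (adjusted p = 0.000468 and 3.00e-05). It fell by 0.72 ± 0.11 between 1 h and 3 h and by 0.92 ± 0.11 between 3 h and 6 h (adjusted p = 7.21e-05 and 6.09e-06). Under spike-in scaling the calls against DMSO at 3 h and 6 h were lost (0.20 and -0.40, adjusted p = 0.415 and 0.0643), and the fall between 3 h and 6 h was 0.60.

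SOCS3 decreased without an early rise. SOCS3 encodes an inhibitor recruited to the IL-6 receptor subunit gp130, and it is the member with the fewest reads, an estimated 42 to 199 per library. It stood at 2.31, 2.24 and 2.68 TPM in DMSO, 1.36, 1.91 and 1.19 at 1 h, 1.19, 1.35 and 1.46 at 3 h, 0.560, 0.989 and 1.13 at 6 h and 1.05, 0.747 and 0.872 at 24 h. Every KB528 library lay below every DMSO library. SOCS3 was lower by 0.47 at 1 h (adjusted p = 0.0135), 0.55 at 3 h (adjusted p = 0.0014), 0.86 at 6 h (adjusted p = 1.66e-05) and 0.85 at 24 h (adjusted p = 1.96e-05; SE 0.12 each). The 1 h call was lost without KB528 1 h replicate 3 (-0.38, adjusted p = 0.0679) and under spike-in scaling (-0.50, adjusted p = 0.0613). The further step of -0.31 from 3 h to 6 h (adjusted p = 0.0413) was lost without KB528 3 h replicate 2 (-0.30), KB528 3 h replicate 3 (-0.27) or KB528 6 h replicate 1 (-0.18), with no filter (adjusted p = 0.0884) and under spike-in scaling (-0.077).

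The kinases JAK1 and JAK2 were higher late in the course. JAK1 pairs with the receptors of the IL-6, IL-2 and interferon families. Its levels were 27.7, 24.8 and 31.3 TPM in DMSO, 30.5, 30.6 and 32.2 at 1 h, 26.8, 27.0 and 29.4 at 3 h, 38.3, 39.0 and 40.0 at 6 h and 44.0, 42.0 and 40.8 at 24 h. The libraries at 6 h and 24 h lay above all others, and those at 1 h and 3 h overlapped the DMSO range. JAK1 rose by 0.48 ± 0.067 at 6 h and 0.59 ± 0.067 at 24 h (SE; adjusted p = 1.35e-05 and 2.02e-06) and by 0.48 between 3 h and 6 h (adjusted p = 2.64e-05). At 1 h its log2 change of 0.16 did not pass (adjusted p = 0.106), but it did without DMSO replicate 3 (0.24, adjusted p = 0.00742). JAK2, the kinase of the erythropoietin, thrombopoietin and growth hormone receptors, was scarce in these cells, at 1.10, 0.777 and 0.970 TPM in DMSO, 1.02, 0.947 and 1.22 at 1 h, 0.918, 0.733 and 0.822 at 3 h, 1.37, 1.64 and 1.36 at 6 h and 2.26, 1.59 and 1.95 at 24 h. Its mean was 0.950 TPM in DMSO and 1.24 TPM over all libraries, so it passed the filter only through KB528 libraries. Its libraries at 6 h and 24 h lay above those in DMSO, with the 2 times overlapping each other. JAK2 rose by 0.33 ± 0.097 at 6 h and 0.58 ± 0.097 at 24 h (SE; adjusted p = 0.00641 and 7.21e-05), with a mean at 24 h 2.03 times that in DMSO. Between 6 h and 24 h it rose by 0.25 (adjusted p = 0.0316), a call lost without KB528 6 h replicate 1 (0.23), KB528 6 h replicate 3 (0.22), KB528 24 h replicate 1 (0.17) or KB528 24 h replicate 3 (0.24), with a pseudocount of 0.1 TPM (0.38, adjusted p = 0.0568) and under spike-in scaling (0.12).

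STAT3 and the STAT5 pair ended higher but took different routes. STAT3, the main STAT of IL-6 signalling, stood at 20.6, 18.4 and 22.3 TPM in DMSO, 24.7, 25.1 and 24.5 at 1 h, 21.8, 20.1 and 24.3 at 3 h, 26.9, 27.2 and 29.4 at 6 h and 34.6, 33.4 and 32.7 at 24 h. The libraries at 24 h lay above those at 6 h, which lay above all others. STAT3 rose by 0.43 at 6 h and 0.69 at 24 h (SE 0.071; adjusted p = 6.52e-05 and 7.19e-07), and by 0.33 between 3 h and 6 h and 0.26 between 6 h and 24 h (adjusted p = 0.00121 and 0.00426). The last step was lost under spike-in scaling (0.061, adjusted p = 0.841). A rise of 0.27 at 1 h (adjusted p = 0.0138) was lost without DMSO replicate 2 (0.20, adjusted p = 0.0641) and under spike-in scaling (0.21).

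STAT5A and STAT5B, neighbouring genes for closely related STATs that act downstream of IL-2 family and growth hormone type receptors, dipped or stayed near the DMSO level before rising at 24 h. STAT5A stood at 5.95, 5.01 and 6.68 TPM in DMSO, 6.27, 6.22 and 5.22 at 1 h, 4.58, 4.36 and 5.08 at 3 h, 3.88, 4.65 and 4.75 at 6 h and 10.2, 9.12 and 9.13 at 24 h. STAT5B stood at 13.5, 12.7 and 15.8 TPM in DMSO, 14.4, 14.7 and 14.4 at 1 h, 10.9, 10.3 and 11.8 at 3 h, 12.6, 12.7 and 14.2 at 6 h and 22.4, 22.0 and 21.6 at 24 h. For both genes the 24 h libraries lay above all others. STAT5A rose by 0.61 and STAT5B by 0.63 at 24 h (SE 0.097 and 0.072; adjusted p = 4.71e-05 and 2.37e-06), and between 6 h and 24 h by 0.95 and 0.70 (adjusted p = 5.02e-07 and 5.86e-07). STAT5B was lower by 0.31 at 3 h (adjusted p = 0.00175), with every library below the DMSO range, and had fallen by 0.37 since 1 h (adjusted p = 0.000616). Its rise of 0.24 from 3 h to 6 h (adjusted p = 0.0112) was lost under median-ratio scaling (0.090) and without KB528 3 h replicate 2 or KB528 6 h replicate 3 (both 0.19). At 6 h STAT5B was -0.075 from DMSO and did not pass, but was called lower under median-ratio scaling (-0.22, adjusted p = 0.00124).

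STAT5A was lower by 0.34 at 6 h (adjusted p = 0.00577; -0.18 and lost under spike-in scaling). Its call at 3 h (-0.27, adjusted p = 0.0251), where the ranges overlapped, did not hold when DMSO replicate 1 (-0.26), DMSO replicate 3 (-0.19), KB528 3 h replicate 1 (-0.26) or KB528 3 h replicate 2 (-0.23) was left out, nor with no filter, with the 2 compared groups alone (adjusted p = 0.0598 and 0.0642) or under spike-in scaling (-0.46, adjusted p = 0.0597). The step from 1 h to 3 h (-0.28, adjusted p = 0.0259) was lost without KB528 1 h replicate 1 (-0.24), KB528 1 h replicate 2 (-0.25), KB528 3 h replicate 1 (-0.27) or KB528 3 h replicate 2 (-0.24), with no filter (adjusted p = 0.0626) and under spike-in scaling (-0.42, adjusted p = 0.113). Of the 50-base stretches of the GENCODE transcripts, 507 are common to both genes, 11.9% of those of STAT5A and 10.0% of those of STAT5B. Some reads could thus have matched both genes. How such reads were counted is not known here, and the 2 values are uncertain for that reason.

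**Figure D2:**
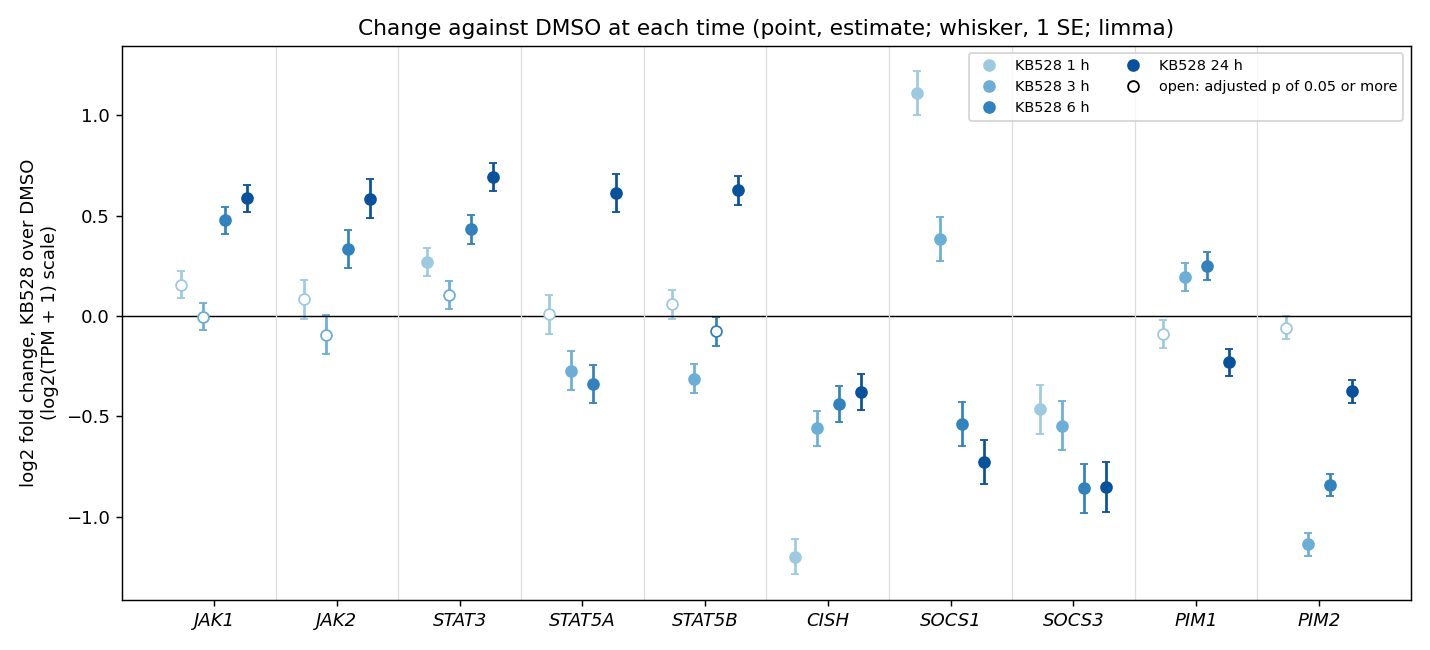
Log2 fold change of KB528 over DMSO on the log2(TPM + 1) scale (y axis) for each of the 10 genes (x axis), with 1, 3, 6 and 24 h from left to right in darkening blue. Whiskers are 1 SE and open points did not pass the limma test at an adjusted p of 0.05; JAK and STAT genes end above 0 at 24 h and the inhibitors and PIM genes below it.

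The PIM kinases moved apart at 3 h. PIM2 was the most abundant of the 10 genes per length, at 366, 343 and 404 TPM in DMSO, 352, 352 and 362 at 1 h, 169, 159 and 176 at 3 h, 194, 207 and 218 at 6 h and 289.6, 280.5 and 286 at 24 h. The libraries at 1 h overlapped those in DMSO, and the 3 h libraries lay below all others, with 6 h and 24 h in between. PIM2 fell by 1.14 ± 0.056 at 3 h (SE; adjusted p = 2.83e-10), when its mean was 0.452 of that in DMSO, and was lower by 0.84 at 6 h (adjusted p = 6.38e-09) and 0.38 at 24 h (adjusted p = 2.93e-05). At 1 h its change was -0.059 and did not pass, but -0.11 did under median-ratio scaling (adjusted p = 0.0391). Between 1 h and 3 h it fell by 1.08, and it then rose by 0.30 between 3 h and 6 h and by 0.47 between 6 h and 24 h (adjusted p = 1.16e-09, 0.000421 and 3.05e-06). The 24 h call against DMSO and the step from 6 h to 24 h were lost under spike-in scaling (-0.39 and 0.26, adjusted p = 0.134 and 0.326).

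PIM1, a well-known STAT target, varied far less. It stood at 58.6, 53.7 and 66.3 TPM in DMSO, 56.5, 54.8 and 55.8 at 1 h, 66.5, 63.5 and 74.1 at 3 h, 67.7, 69.2 and 75.1 at 6 h and 51.4, 49.8 and 49.9 at 24 h. The 24 h libraries lay below all others, and those at 3 h overlapped DMSO. PIM1 was lower by 0.23 ± 0.069 at 24 h (SE; adjusted p = 0.00747; -0.15 without DMSO replicate 3, -0.25 and lost under spike-in scaling) and fell by 0.48 between 6 h and 24 h (adjusted p = 1.90e-05). It was higher by 0.25 at 6 h (adjusted p = 0.00503), a call lost under median-ratio scaling (0.093) and spike-in scaling (0.43, adjusted p = 0.0653). The higher value of 0.19 at 3 h (adjusted p = 0.0269) did not pass with DMSO replicate 1 (0.18), DMSO replicate 2 (0.12) or KB528 3 h replicate 3 (0.13) left out, with no filter or with the 2 compared groups alone (adjusted p = 0.0581 and 0.101), and its sign turned under spike-in scaling (-0.028, adjusted p = 0.930). Between 1 h and 3 h PIM1 rose by 0.28 (adjusted p = 0.00356; 0.12 and lost under spike-in scaling). At 1 h its change was -0.088 and did not pass, though -0.14 did under median-ratio scaling (adjusted p = 0.0351).

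Ratios of 2 genes within a library, which no scaling of that library alters, describe the same shifts. The SOCS1 to CISH ratio of TPM averaged 0.274 in DMSO (0.264 to 0.284), 1.74 at 1 h (1.66 to 1.84), 0.589 at 3 h, 0.232 at 6 h and 0.179 at 24 h. For PIM2 to PIM1 the ratio averaged 6.25 in DMSO (6.09 to 6.40), 6.38 at 1 h, 2.47 at 3 h (2.37 to 2.54), 2.92 at 6 h and 5.67 at 24 h. The STAT5A to STAT5B ratio averaged 0.420, 0.406, 0.424, 0.336 and 0.430 in the same order, with a range of 0.307 to 0.367 at 6 h. Both SOCS1 with CISH at 1 h and PIM2 with PIM1 at 3 h thus differed from DMSO with no overlap of libraries, whatever the scaling of the library.

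**Figure D3:**
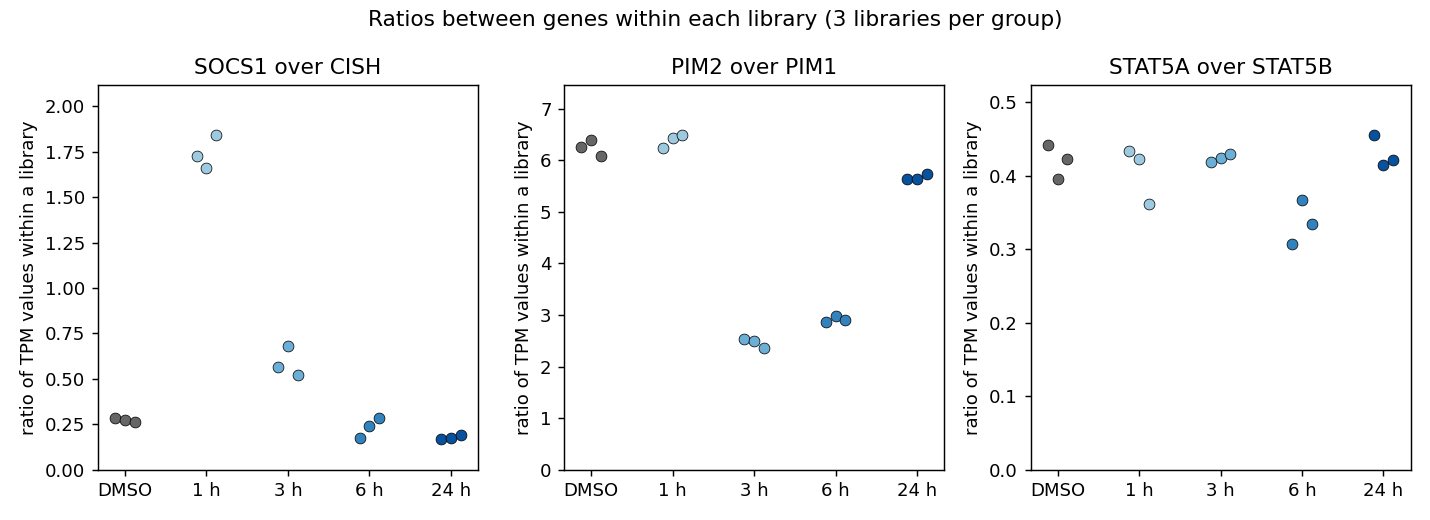
Ratio of TPM within each library (y axis, linear from 0) at each time of KB528 with DMSO at the left (x axis) for SOCS1 over CISH, PIM2 over PIM1 and STAT5A over STAT5B. Points are libraries; the SOCS1 to CISH ratio is 1.66 to 1.84 at 1 h and 0.264 to 0.284 in DMSO.

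DMSO replicate 2 gave the lowest DMSO value for 10 of the 10 genes, and for 73.8% of the tested genes, and DMSO replicate 3 gave the highest for 9 of the 10, and for 59.8% of the tested genes. The median-ratio factors of DMSO replicates 1, 2 and 3 were 0.968, 0.887 and 0.983. The part of this order in the changes against DMSO was examined only by leaving each library out and by rescaling the libraries. Fewer cells of a kind and less RNA per cell cannot be told apart in these bulk libraries.

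By Pearson r of log2(TPM + 1) over the 15 libraries, as a description across libraries that share their groups, the gene most like SOCS1 in pattern was the small nucleolar RNA gene SNORA9 (r = 0.979), followed by CDKN1A (0.977), which encodes the cell cycle inhibitor p21, and IER2 (0.972), an immediate early gene. Matches to CISH had lower r, with RAB3A at 0.895, TXNIP at 0.894 and ZNF232 at 0.870. PIM2 was nearest to ATP8B2 (0.995), C1orf106 (0.986) and PPAP2B (0.984). The nearest genes were PARN for JAK1 (0.988), ICK for JAK2 (0.953), FANCA for STAT3 (0.988), SCAPER for STAT5A (0.982), PLOD1 for STAT5B (0.994), TNFRSF25 for SOCS3 (0.922) and C1orf109 for PIM1 (0.928).

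Around these 10 genes, other parts of the pathway were described by counts. Each change named here passed the limma threshold, and the shares of all genes called at each time are those of the 10 genes' comparisons. Those shares are for TPM as deposited, and counts under spike-in scaling are to be read beside the all-gene counts given above for that scaling. A filter of 5 TPM left the list genes with a lower mean untested, so its counts are over fewer genes. Of the 17 cytokine ligand genes, IL6 among them, 0 reached the filter, and CLCF1 gave the highest value in any library, 1.54 TPM. Of the 6 other JAK, STAT and STAT partner genes tested, 0, 0, 4 and 5 were higher and 0, 2, 2 and 1 lower at 1, 3, 6 and 24 h, with medians of 0.016, -0.044, 0.27 and 0.50. IRF9, a DNA-binding partner of STAT2 in interferon signalling, averaged 10.6 TPM at 6 h and 6.12 TPM in DMSO (log2 change 0.70). The kinase TYK2 was higher by 0.54 at 24 h. STAT2 was lower by 0.64 at 3 h and higher by 0.46 at 24 h, a call lost under spike-in scaling. STAT6, the STAT of IL-4 signalling, averaged 33.6 TPM at 6 h and 56.3 TPM in DMSO (-0.72), and STAT4 was lower by 0.25 at 24 h, a call lost without KB528 24 h replicate 2 (-0.21) and under spike-in scaling (-0.27). Without DMSO replicate 3, 1 of these genes was higher at 1 h and 2 at 3 h, and without KB528 3 h replicate 2, 1 was higher at 3 h. Under spike-in scaling 1 gene of this list was lower at 6 h, while at 24 h 3 were higher and 0 lower. Median-ratio scaling, or taking the spike-ins out of the total, gave 1 higher at 3 h, and a filter of 5 TPM gave 0 lower at 24 h.

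Of 17 receptor genes tested from a list of 35, 2, 2, 4 and 8 were higher and 4, 12, 7 and 4 lower at 1, 3, 6 and 24 h, with medians of 0.0044, -0.37, -0.14 and 0.11. IL10RA, the ligand-binding chain of the IL-10 receptor, averaged 27.3 TPM at 6 h and 9.63 TPM in DMSO (log2 change 1.42), and IL21R 13.5 TPM at 6 h and 5.40 TPM in DMSO (1.18). IL2RG, the common gamma chain, was higher by 1.00 at 24 h. IL6R, which binds IL-6 on the cell surface, averaged 7.33 TPM at 6 h and 20.6 TPM in DMSO (-1.37). IFNLR1 was lower by 1.24 and IL15RA by 0.78 at 3 h, while IL27RA was lower by 0.73 at 6 h and higher by 0.78 at 24 h. The receptors called lower at 6 h numbered 12 under median-ratio scaling and 3 under spike-in scaling, and at 24 h 8 and 1. Spike-in scaling also called 0 receptors higher at 3 h and 3 at 24 h. Its counts at 1 h were 1 higher, 1 lower. A filter of 5 TPM left 5 higher at 24 h, and the compared groups alone gave 1 higher and 2 lower at 1 h and 2 lower at 24 h. At 1 h 1 receptor was higher when DMSO replicate 1 or 2 or any KB528 1 h library was left out, and 2 were lower at 24 h without DMSO replicate 1.

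Of 15 other inhibitors tested, 3, 6, 12 and 12 were higher and 2, 4, 3 and 2 lower at 1, 3, 6 and 24 h, with medians of 0.11, 0.064, 0.38 and 0.35. PTPN1, a phosphatase that acts on JAK2 and TYK2, averaged 56.9 TPM at 6 h and 30.0 TPM in DMSO (0.90). SOCS7 and PIAS3 were higher by 0.79, also at 6 h. SOCS6 was higher by 0.77 at 6 h, at low levels (2.07 TPM, and 0.798 TPM in DMSO). With a DMSO mean below 1 TPM, SOCS6 passed the filter only through KB528 libraries. PTPN6, the phosphatase SHP-1, averaged 14.4 TPM at 6 h and 40.6 TPM in DMSO (-1.43). At 3 h the adaptor SH2B3 and the ubiquitin ligase CBL were lower by 0.52, and the phosphatase PTPRC (CD45) by 0.42. At 1 h the count of higher inhibitors was 1 without DMSO replicate 2, KB528 1 h replicate 2 or KB528 1 h replicate 3 and 5 without DMSO replicate 3, and that of lower ones was 0 without DMSO replicate 1 or KB528 1 h replicate 3 and 1 without DMSO replicate 3 or KB528 1 h replicate 1. At 24 h 1 was lower without DMSO replicate 1, DMSO replicate 3, KB528 24 h replicate 1 or KB528 24 h replicate 3, and spike-in scaling called 0 higher and 0 lower at 1 h, 0 higher at 3 h, 1 lower at 6 h, 5 higher at 24 h and 0 lower at that time. After removal of spike-ins from the total, 5 were higher at 1 h, with the compared groups alone 1 was higher and 0 lower at 1 h and 1 lower at 24 h, and a filter of 5 TPM left 2 lower at 3 h and 1 at 6 h.

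Of 14 known STAT3 and STAT5 target genes tested, 6, 3, 4 and 4 were higher and 3, 8, 8 and 10 lower at 1, 3, 6 and 24 h, with medians of 0.064, -0.24, -0.33 and -0.25. JUNB was higher by 1.09 and the survival gene MCL1 by 0.84 at 1 h, and FURIN by 0.94 at 6 h. BCL6 was higher by 0.69 at 1 h, at low levels (1.57 TPM, and 0.590 TPM in DMSO). With a mean of 1.08 TPM over all libraries, BCL6 passed the filter only through KB528 libraries. The call was kept with no filter, and a filter of 5 TPM left BCL6 untested. DUSP5, an ERK phosphatase, averaged 26.8 TPM at 3 h and 145 TPM in DMSO (-2.39). MYC averaged 235 TPM at 6 h and 808 TPM in DMSO (-1.77), ID1 was lower by 1.36 at 6 h and S1PR1 by 1.36 at 3 h. Spike-in scaling gave 3 higher and 1 lower at 1 h, 0 higher at 3 h and 5 lower at 6 h, and median-ratio scaling gave 5 lower at 1 h. A filter of 5 TPM left 5 lower at 3 h, 2 higher at 6 h and 2 higher at 24 h. At 24 h 1 of these genes was higher under median-ratio scaling and under spike-in scaling, and 2 without DMSO replicate 2 or KB528 24 h replicate 2, while 3 were lower under spike-in scaling.

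Of 13 genes for PIM3 and PIM substrates, 7, 2, 4 and 5 were higher and 2, 6, 6 and 3 lower at 1, 3, 6 and 24 h, with medians of 0.21, -0.082, -0.060 and -0.044. CDKN1A averaged 159 TPM at 1 h and 18.4 TPM in DMSO (3.05), and 4.10 TPM at 24 h (-1.93). The phosphatases CDC25A and CDC25C were higher by 0.87 at 3 h and 0.81 at 24 h. FOXO3 was lower by 0.96 at 3 h and the kinase MAP3K5 by 1.01 at 6 h, while NFATC1 was lower by 0.61 at 6 h and higher by 0.59 at 24 h. At 24 h 8 of these genes were lower under median-ratio scaling, 7 without DMSO replicate 2 and 1 under spike-in scaling, which also called 1 higher and 0 lower at 1 h, 3 lower at 3 h and 3 higher at 24 h.

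**Figure D4:**
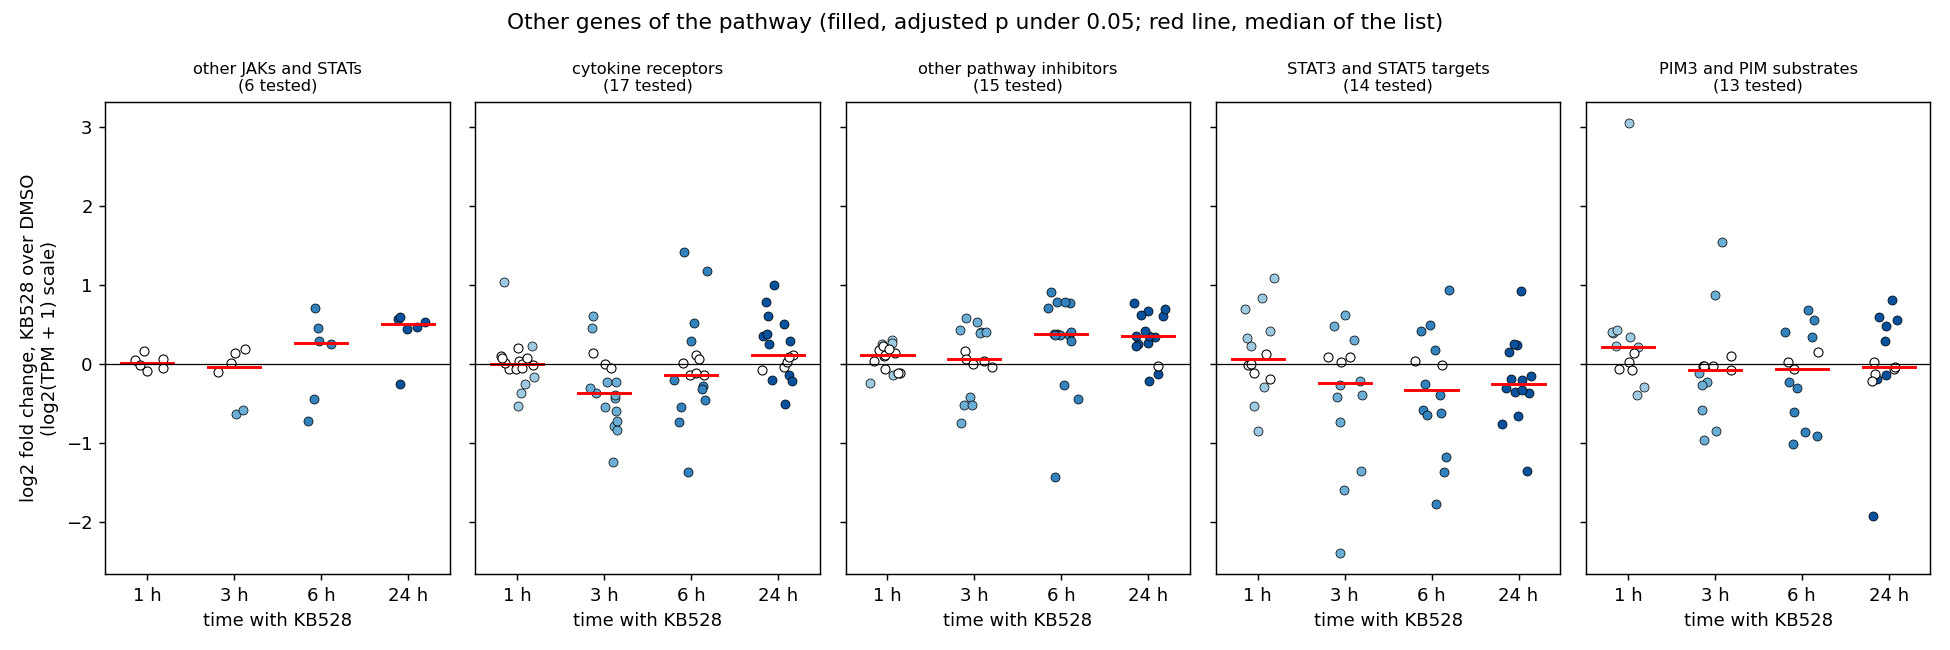
Log2 fold change of KB528 over DMSO on the log2(TPM + 1) scale (y axis) at each time of KB528 (x axis) for the tested genes of 5 role lists. Each point is a gene, filled where the adjusted p was under 0.05, and red lines are list medians; medians of the receptor list are -0.37 at 3 h and 0.11 at 24 h.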

How the data were processed

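RNA from RPMI-8226 cells was sequenced by a strand-specific mRNA protocol, per the labels' protocols. Tools listed in the submitters' processing notes are FastQC, MultiQC, STAR and featureCounts, and the build listed is hg19. The authors deposited TPM values, normalized for length and library size, for 26364 gene rows and 92 spike-in rows. The control columns are named there as untreated at 0 h and were matched to the DMSO samples by time and replicate number (0 columns unused).

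Log2(TPM + 1) values of the 12002 genes averaging 1 TPM or more went into 1 limma model (limma 3.58.1, R 4.3.3) of the 5 groups and 15 libraries, with moderated variances that follow a trend. Benjamini-Hochberg adjustment was made over all tested genes per contrast, and calls used 0.05. The fit was tested on simulated data. No count model was used. Read numbers per gene were estimated from steps in low values and the longest GENCODE coding transcript. The members, lists and tests were chosen with earlier results of these data known. The named genes were the 10 members, up to 4 genes per list and direction with the largest called change against DMSO, and the 3 genes most like each member; some genes are not reported here. Promoter sequences are RefSeq's, on GRCh38.p14, with windows found for 10 of 10 members. No level was read by coordinate. Figures and searches used Python 3.11.15, numpy 2.4.6, pandas 2.3.3 and matplotlib 3.10.9.

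Tried in turn were 0.1 as the pseudocount, no filter, a 5 TPM filter, median-ratio and spike-in scaling, spike-ins out of the total, the compared groups alone, the replicate number as a block, and each library left out. Deviations from group means were correlated between same-numbered libraries. For 6 h and DMSO, 3 of 3 pairs were over 0.1 (0.136, 0.152 and 0.148), as in no other compared groups. For 3 h and DMSO, replicates 2 and 3 gave higher values (0.338 and 0.430) but replicate 1 gave -0.157. Those alternatives for consecutive times were in part added after the data were seen.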

Additional observations from a re-analysis of the deposited data

Results flagged for a closer look

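The log2 change of these genes against DMSO differed between consecutive times of KB528, as tested by the contrast of the 2 treated groups, in 19 cases. Between 1 h and 3 h, CISH rose by 0.64 and PIM1 by 0.28, while PIM2 changed by -1.08, SOCS1 by -0.72, STAT5B by -0.37 and STAT5A by -0.28. That is 2 higher and 4 lower of 10, beside 15.2% higher and 31.8% lower of all genes tested. Between 3 h and 6 h, JAK1 rose by 0.48, JAK2 by 0.43, STAT3 by 0.33, PIM2 by 0.30 and STAT5B by 0.24, while SOCS1 changed by -0.92 and SOCS3 by -0.31, 5 higher and 2 lower beside 42.3% and 13.7%. Between 6 h and 24 h, STAT5A rose by 0.95, STAT5B by 0.70, PIM2 by 0.47, STAT3 by 0.26 and JAK2 by 0.25, while PIM1 changed by -0.48, 5 higher and 1 lower beside 41.0% and 26%. Among the 10 genes, STAT5A and STAT5B had the largest rises of the last interval. Groups of 3 libraries were too small for a test of single outlying libraries.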

How the results depend on the processing

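Of 1146 alternative values for the 10 genes, 1084 kept direction and side of the threshold, 49 lost the call (18 of them under spike-in scaling), 12 gained it and 1 reversed, PIM1 at 3 h under spike-in scaling (-0.028). The cause was not tested. The log2 spike-in factors varied within groups with SDs of 0.123 to 0.315. Spike-in scaling called 471, 2934, 5113 and 3096 genes at 1, 3, 6 and 24 h, 2151 from 1 h to 3 h and 3677 from 6 h to 24 h, and 2, 4 and 5 of the 10 genes at 1, 3 and 6 h and 3 in each of those 2 intervals. TPM as deposited gave 2710, 6827, 8272 and 8564 genes, 5645 and 8047 in those intervals, and 4, 7, 9 and 10 members, with 6 in each interval. The 1 h groups alone gave 1723 genes. A filter of 5 TPM, which left JAK2, SOCS1 and SOCS3 untested, called 2 members at 1 h and 4 from 3 h to 6 h. Splits by direction also moved between consecutive times. From 1 h to 3 h, 1829 genes were higher and 3816 lower, against 2939 and 3560 under median-ratio and 81 and 2070 under spike-in scaling. From 3 h to 6 h the pairs were 5074 and 1648, 3103 and 3600, and 7362 and 232, and from 6 h to 24 h 4925 and 3122, and 1640 and 2037 under spike-in scaling. Median shifts were -0.14 (3 h to 6 h, median ratio) and -0.15, 0.38 and -0.19 (spike-in, in time order).

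Leaving out each library gave 1818 to 3920 genes and 3 to 5 members at 1 h, 6108 to 6808 and 5 to 6 at 3 h, 7672 to 8322 and 9 at 6 h, and 7893 to 8717 and 10 at 24 h. Between times it gave 4893 to 5522 and 5 to 8, 5774 to 6548 and 5 to 7, and 7406 to 7574 and 5 to 6, and the F test called 11028 to 11364 genes. JAK1 and STAT3 from 1 h to 3 h passed without KB528 3 h replicate 3 (-0.20 and -0.23), and SOCS1 from 6 h to 24 h without KB528 6 h replicate 1 (-0.35).

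Over all groups, 30 pairs of libraries with the same number gave correlations of deviations from -0.157 to 0.430, 7 of them over 0.1. The 60 pairs with different numbers gave 8 over 0.1. Both ends of the same-number range came from DMSO with 3 h, where replicate 1 gave -0.157 and replicate 3 gave 0.430. What the replicate numbers stand for was not tested. With the replicate block, which changed no member's call at 6 h, 2926, 6950, 8384 and 8636 genes and 4, 7, 9 and 10 members were called against DMSO, and JAK1 and STAT3 also passed from 1 h to 3 h (-0.16 each). Depth limits SOCS3, JAK2 and SOCS1, with an estimated 42 to 199, 115 to 278 and 69 to 409 reads per library.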
